A study of Mus musculus with 6 samples.

Results

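The genes described here are those of the Wnt pathway in the colon mucosa of mice prone to intestinal tumours. They were taken by symbol from the annotation of the array. Every gene named Wnt, Fzd, Sfrp or Dkk followed by a number was included, and 26 further genes were added by name. The rule reached 62 genes with 129 probes, of 19031 genes named on the array and 45135 probes in all. Tcf7, which was on the list, had no named probe and was not analysed here. The rule used no measured value.

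Total RNA from colon mucosa of 6 mice, each 5 months old and of the C57/B6 background, was hybridised to Illumina bead arrays, 1 mouse to an array. All 6 mice carried the Min mutation on 1 copy of Apc and floxed alleles on both copies of Dnmt3a, whose product places new methyl groups on DNA. A Fabp-Cre transgene was present in 3 of them, called Dnmt3a-deleted below, and per the study's design text Cre removed the gene in 30 to 50% of their mucosa cells. The remaining 3 mice lacked the transgene and served as controls. A change limited to deleted cells is therefore diluted by the rest of the sample, and every mouse of either group had the Apc mutation, so no tissue with 2 intact Apc copies was measured. The labels name no tumour tissue. They give each mouse its own animal number, and no batch, slide or scan date.

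Wnt proteins are secreted ligands that bind Frizzled receptors and the co-receptors Lrp5 and Lrp6. In the absence of a ligand, a destruction complex built on Axin and Apc lets Gsk3b mark beta-catenin for degradation. When the complex is disabled, beta-catenin enters the nucleus, binds Tcf and Lef factors and switches on target genes, several of which feed back as inhibitors. In the colon this pathway maintains the stem cells at the crypt base, and loss of Apc, as in tumours of Min mice, turns it on without a ligand.

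Values below are log2 intensities after background correction and quantile normalization, in the order of replicates 1 to 3, and where 2 sets of values are joined by against, control comes first. Differences are Dnmt3a-deleted minus control, with the standard error (SE) of limma's linear model, and adjusted p-values are Benjamini-Hochberg values over all 11370 genes tested. Probes differ in brightness for reasons other than RNA amount, so levels are compared only between mice and not between genes. Detected probes numbered 19339 to 21358 per array. The array of Dnmt3a-deleted replicate 3 stood apart: it had the fewest detected probes and its correlations with the others ran from 0.925 to 0.950, against at least 0.978 among the other 5. Its value lay outside the range of the other 5 arrays for 19 of the 31 Wnt genes tested (61.3%), and for 67.5% of all genes. Differences without this array are therefore given beside those over all 6. By Xist and the Y-linked Eif2s3y, the control group held 1 male and 2 females and the Dnmt3a-deleted group 2 males and 1 female, replicate 3 being that female.

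The tissue label was checked against marker genes. All 12 epithelial markers listed, among them Epcam, Cdh1 and Vil1, were detected, at a mean log2 level of 11.67 to 11.74 in control and 11.56 to 11.81 in Dnmt3a-deleted mucosa. Of 15 fibroblast and smooth muscle markers 6 passed the detection filter, while Col1a1, Col1a2, Lum, Pdgfra and Myh11 were detected on no array. None of the 7 endothelial markers passed the filter. The 3 probes of Dnmt3a itself were detected on 0 of 6 arrays, with log2 values between 4.19 and 5.07, so the deletion could not be read from the arrays.

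Members differed by role in whether they could be measured. A probe was kept when it was detected above background on at least 3 of the 6 arrays, and 31 of the 62 genes had such a probe. Ligands were mostly out of reach: 3 of 18 were kept, 2 more were detected on 1 or 2 arrays, and 13 on none. All 4 genes of the destruction complex list and 7 of 8 further target genes were kept. Of the inhibitors, 4 of 9 secreted ones and 2 of 7 feedback ones were kept. A gene below the filter is one whose level was not detectable by these probes, which does not show that it was absent.

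**Figure D1:**
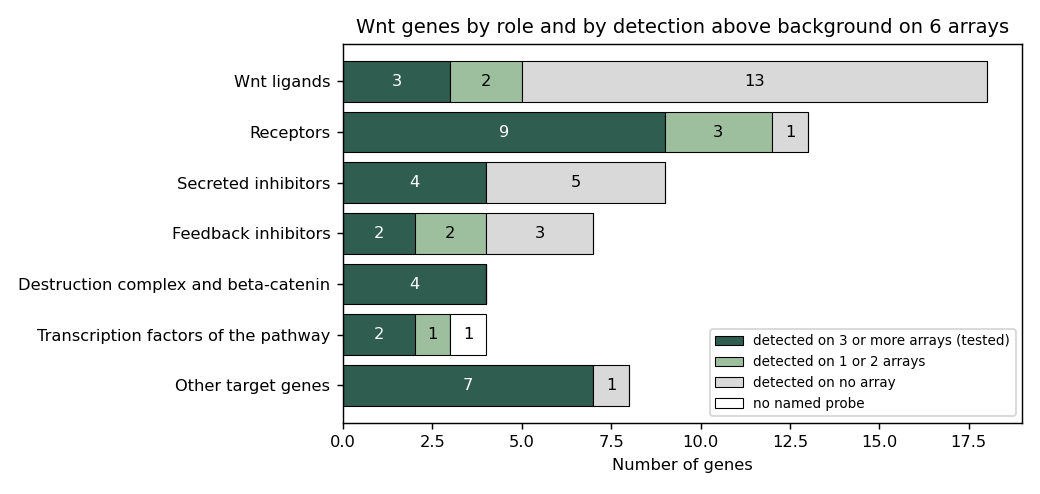
Number of Wnt genes in each role (horizontal axis, genes), split by whether a probe was detected above background on at least 3 of 6 arrays, on 1 or 2, or on none. Only 3 of 18 ligands were measurable, against 9 of 13 receptor genes and all 4 genes of the destruction complex list.

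The comparison asked whether loss of Dnmt3a from part of the mucosa changed the expression of these genes in an Apc-mutant background. No Wnt gene passed an adjusted p of 0.05 in either direction by limma, and 1 gene of 11370 did (0.0088%). The smallest adjusted p among the Wnt genes was 0.700. At an unadjusted p under 0.05 there were 3 Wnt genes, all higher in Dnmt3a-deleted mucosa: Axin2, Tcf7l1 and Tiam1. That is 9.68% of the 31, where 5.25% of all genes passed in either direction, 3.1% being higher and 2.15% lower. The groups did not overlap for 5 Wnt genes, 3 higher and 2 lower, or 16.1%, beside 14.5% of all genes, of which 9.22% were higher and 5.3% lower. The median difference over the 31 genes was 0.07, with 21 above 0 and 10 below, beside a median of 0.06 over all genes, of which 58.4% lay above 0. The median spread between mice of a group was also alike, an SD of 0.253 for the Wnt genes and 0.251 for all genes. Without Dnmt3a-deleted replicate 3 the median was 0.10, with the counts of 21 and 10 as before. At an unadjusted p under 0.05 there were then 4 of 31, against 4.86% of all genes, and Wif1 was the lower one among them. That count was 2 without control replicate 1, 0 without control replicate 2 and 1 without control replicate 3, beside 2.80%, 3.63% and 2.87% of all genes. It was 0 without Dnmt3a-deleted replicate 1 and 4 without replicate 2, beside 4.85% and 11.8%.

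**Figure D2:**
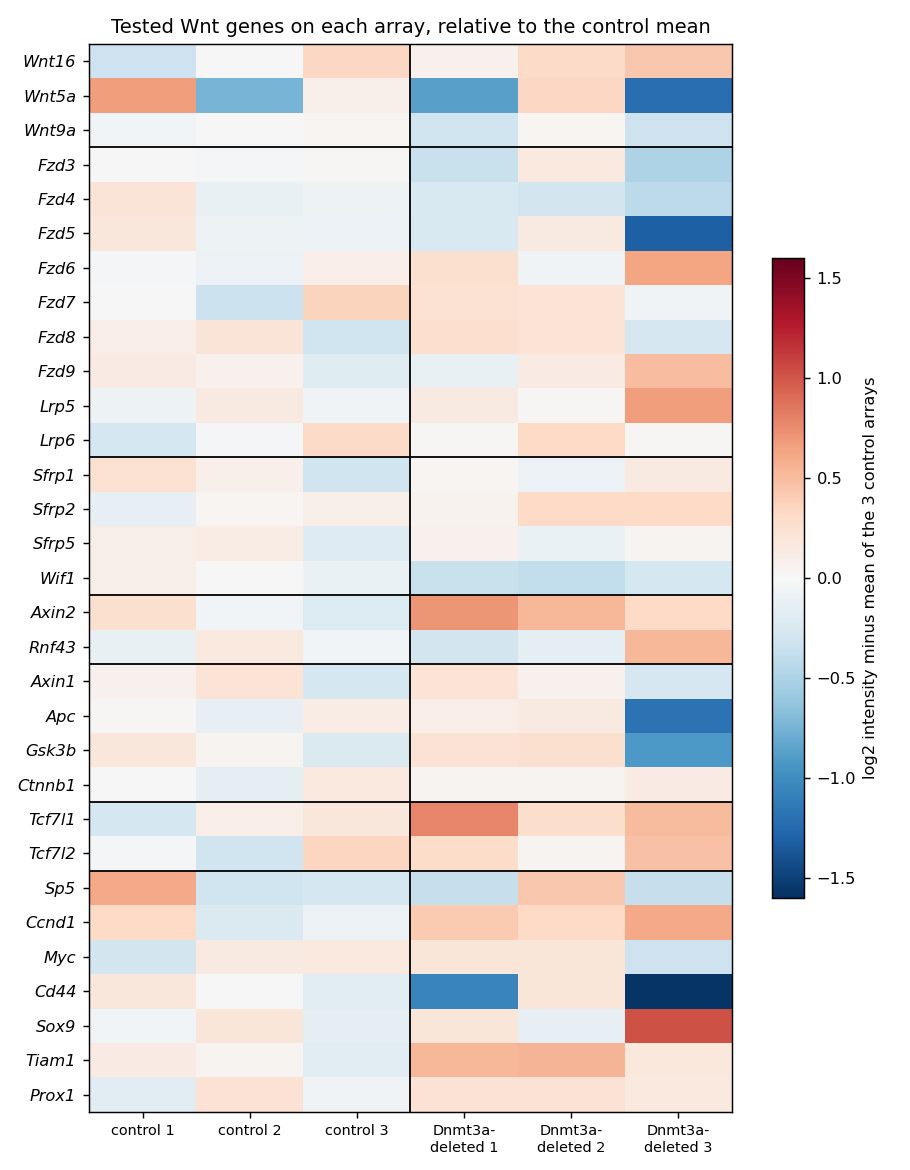
Log2 intensity of the 31 tested Wnt genes (rows, separated by role) on each of the 6 arrays (columns) minus the mean of the 3 control arrays; red is higher and blue lower. Dnmt3a-deleted replicate 3 holds the deepest colours of its group, as in Fzd5, Apc, Cd44 and Sox9, while Axin2, Tcf7l1 and Tiam1 are red in all 3 Dnmt3a-deleted mice.

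Among the ligands, Wnt5a acts mainly through signalling that does not involve beta-catenin, and in the gut is made largely by cells of the stroma. Control mice had log2 intensities of 6.56, 5.14 and 5.97, and Dnmt3a-deleted mice of 5.02, 6.22 and 4.67. It was high in 2 control mice and in Dnmt3a-deleted replicate 2 and low in the other 3, so the groups overlapped widely. The difference was -0.58 ± 0.47 (SE), -0.27 without Dnmt3a-deleted replicate 3 and -0.25 without control replicate 1. It was -1.04 without Dnmt3a-deleted replicate 2 and -0.96 without control replicate 2. The probe was detected on 2 control arrays and 1 Dnmt3a-deleted array. Mean levels of the 6 fibroblast and smooth muscle markers tested were 5.43 to 5.74 and 5.51 to 5.73; their part in the Wnt5a values was not tested. Wnt9a stood at 5.29, 5.34 and 5.36 in control mice, against 5.01, 5.36 and 5.00 in Dnmt3a-deleted mucosa, with replicates 1 and 3 of the latter below every control mouse and replicate 2 among them. Wnt16 stood at 4.61, 4.94 and 5.28 against 5.01, 5.25 and 5.37, overlapping groups at the edge of detection. Differences of Wnt9a and Wnt16 were -0.21 ± 0.17 and 0.27 ± 0.21 (SE), both at an adjusted p of 0.713 by limma, and -0.15 and 0.18 without Dnmt3a-deleted replicate 3.

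The 15 remaining ligands did not pass the filter. Wnt10a and Wnt10b were detected on 2 arrays at most. Wnt1, Wnt2, Wnt2b, Wnt3, Wnt3a, Wnt4, Wnt5b, Wnt6, Wnt7b, Wnt8a, Wnt8b, Wnt9b and Wnt11 were detected on none. Wnt2b, Wnt3, Wnt6 and Wnt9b, which are known as crypt ligands in the mouse, were thus not measurable in either group.

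Receptor genes were better covered. Fzd5, a Frizzled receptor of the intestinal epithelium, stood at 11.11, 10.85 and 10.83 in control mice, against 10.69, 11.07 and 9.62 in Dnmt3a-deleted mucosa. Dnmt3a-deleted replicate 3 was lower than every other mouse, and the other Dnmt3a-deleted mice lay close to the controls. The difference of -0.47 ± 0.35 (SE) was -0.05 ± 0.17 without that array. Of its 3 kept probes, the faintest did separate the groups, at 5.43, 5.50 and 5.77 against 5.22, 5.24 and 5.13 (difference -0.37). The remaining Fzd5 probe did not, at 6.42, 6.70 and 7.83 against 6.35, 6.70 and 6.04 (difference -0.62). Fzd4, also a receptor for the ligand norrin in blood vessels, stood at 5.69, 5.36 and 5.39 against 5.23, 5.19 and 5.06. All 3 Dnmt3a-deleted values lay below the 3 control values, by a small step at a level where only 2 of 3 arrays of each group detected it. Its difference was -0.32 ± 0.16 (SE), at an adjusted p of 0.700 by limma. It was -0.27 without Dnmt3a-deleted replicate 3 and -0.13 from the authors' processed values.

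Fzd6 had values of 6.37, 6.29 and 6.50 in control mice, against 6.64, 6.33 and 7.02 in Dnmt3a-deleted mucosa, and the co-receptor Lrp5 had 5.73, 5.95 and 5.75 against 5.95, 5.82 and 6.48. In both genes the highest mouse was Dnmt3a-deleted replicate 3 and the groups overlapped. Their differences, 0.28 ± 0.20 and 0.28 ± 0.21 (SE), were 0.10 and 0.08 without it. The other co-receptor, Lrp6, had 5.60, 5.87 and 6.19 against 5.91, 6.21 and 5.90, overlapping, with a difference of 0.12 ± 0.20 (SE) and of 0.17 without that mouse. Fzd7, a receptor of intestinal stem cells in the mouse, had 6.71, 6.38 and 7.07 against 6.96, 6.93 and 6.67, and its groups also overlapped (difference 0.13 ± 0.21, SE, and 0.23 without that mouse). Differences of Fzd3, Fzd8 and Fzd9, receptors near the detection limit, were -0.23, 0.07 and 0.17, with overlapping groups in each. Without Dnmt3a-deleted replicate 3 they were -0.10, 0.24 and 0.01. Fzd1 was detected on no array, and Fzd2, Fzd10 and the antisense transcript Fzd10os, which the rule takes in by its name, on 2 arrays at most.

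Among secreted inhibitors, Wif1, which binds Wnt ligands outside the cell, separated the groups. It stood at 6.09, 6.01 and 5.90 in control mice, against 5.65, 5.60 and 5.72 in Dnmt3a-deleted mucosa, so that every Dnmt3a-deleted mouse was lower than every control mouse, and all 6 arrays detected it. The difference was -0.34 ± 0.15 (SE) or 1.27-fold lower, at an unadjusted p of 0.0522 and an adjusted p of 0.700 by limma. It was -0.37 ± 0.14 without Dnmt3a-deleted replicate 3 (unadjusted p 0.0294, adjusted p 0.926 by limma). From the authors' processed values it was -0.19.

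The Sfrp proteins also bind ligands, and their genes are known to be silenced by promoter methylation in human colorectal cancer. Sfrp1 had 5.87, 5.71 and 5.31 in control mice, against 5.67, 5.53 and 5.77 in Dnmt3a-deleted mucosa, Sfrp2 had 5.01, 5.17 and 5.24 against 5.19, 5.46 and 5.47, and Sfrp5 had 5.27, 5.29 and 4.97 against 5.24, 5.07 and 5.22. None of the 3 separated the groups. Their differences were 0.02 ± 0.19, 0.23 ± 0.16 and 0.00 ± 0.16 (SE), and -0.03, 0.18 and -0.02 without Dnmt3a-deleted replicate 3. The direction of Sfrp1 and Sfrp5 turned with the setting. Sfrp2 was detected on 1 control array and on 3 Dnmt3a-deleted arrays. Sfrp4 and Dkk1 to Dkk4 were detected on no array in either group.

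Feedback inhibitors are themselves targets of beta-catenin, and Axin2 is a widely used readout of the pathway. Axin2 stood at 8.32, 8.02 and 7.84 in control mice, against 8.77, 8.60 and 8.38 in Dnmt3a-deleted mucosa. The lowest Dnmt3a-deleted mouse, replicate 3, lay just above the highest control mouse, replicate 1, and all 6 arrays detected the gene. The difference was 0.52 ± 0.19 (SE), 1.43-fold, at an unadjusted p of 0.0271 and an adjusted p of 0.700 by limma, higher in 3 of 3 mice. Without Dnmt3a-deleted replicate 3 it was 0.62 ± 0.18 (unadjusted p 0.00994, adjusted p 0.926). The only other feedback gene measured, Rnf43, a ubiquitin ligase that removes Frizzled receptors from the membrane, stood at 5.32, 5.59 and 5.38 against 5.14, 5.29 and 5.96, and its groups overlapped. Its difference was 0.03 ± 0.24 (SE) with Dnmt3a-deleted replicate 3 and -0.22 ± 0.15 without it. The inhibitors Nkd2, Znrf3 and Notum were detected on no array, Nkd1 on 1 and Apcdd1 on 2 arrays at most, so Axin2 was alone among them in being well measured.

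Apc and its partners showed no separation. Apc, the gene mutated in every mouse here, stood at 6.50, 6.35 and 6.60 in control mice, against 6.58, 6.63 and 5.29 in Dnmt3a-deleted mucosa. Dnmt3a-deleted replicate 3 was low, and its array did not detect the probe, while the other 5 mice lay within a narrow band. The difference turned from -0.31 ± 0.35 (SE) to 0.12 ± 0.14 without that array. Whether the probe reads the Min allele and the intact allele alike is not given in the sources used here. Gsk3b, the kinase of the complex, stood at 8.57, 8.43 and 8.16 against 8.61, 8.64 and 7.47, again with replicate 3 low, and its second kept probe was highest in that same mouse (7.71, 8.02 and 7.37 against 7.73, 7.92 and 8.51). The 2 Gsk3b probes thus disagreed on replicate 3, and their differences were -0.15 and 0.36. The scaffold Axin1 stood at 8.79, 8.95 and 8.44 against 8.95, 8.80 and 8.46, a difference of 0.01 ± 0.20 (SE) with overlapping groups, and of 0.15 without replicate 3. A fainter Axin1 probe differed by -0.22. Ctnnb1, which encodes beta-catenin, stood at 11.80, 11.64 and 11.96 against 11.84, 11.84 and 11.92, with overlapping groups and a difference of 0.07 ± 0.16 (SE), 0.04 without replicate 3. A fainter Ctnnb1 probe stood at 5.67, 5.18 and 6.32 against 6.24, 5.58 and 7.53, a difference of 0.72. Dnmt3a-deleted replicate 3 was the highest mouse by that probe, which it was not by the other 3 kept probes. Of these, the ones not used for the gene differed by -0.25 and -0.19, and replicate 3 was the lowest mouse by both. These are RNA values, and the amount of beta-catenin protein was not measured.

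Of the DNA-binding partners of beta-catenin, Tcf7l1, which acts largely as a repressor, was higher in Dnmt3a-deleted mucosa by its brighter probe, at 10.05, 10.43 and 10.51 in control mice, against 11.11, 10.61 and 10.84 in Dnmt3a-deleted mice. Replicate 2 of the Dnmt3a-deleted mice lay just above the highest control mouse, and the groups did not overlap. The difference was 0.52 ± 0.20 (SE), 1.43-fold, at an unadjusted p of 0.0344 and an adjusted p of 0.700 by limma, and 0.53 ± 0.21 without Dnmt3a-deleted replicate 3. Its other kept probe did not separate the groups, at 6.14, 6.31 and 6.11 against 6.18, 6.25 and 6.66, a difference of 0.17 with Dnmt3a-deleted replicate 3 the highest mouse. Tcf7l2, the main partner of beta-catenin in the intestine, stood at 9.99, 9.68 and 10.34 against 10.30, 10.05 and 10.48, overlapping, with a difference of 0.27 ± 0.22 (SE), 0.17 without replicate 3. All 3 of its kept probes were higher on average in Dnmt3a-deleted mucosa. Lef1, which is expressed in lymphocytes and in tumours, was detected on 1 of 6 arrays.

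**Figure D3:**
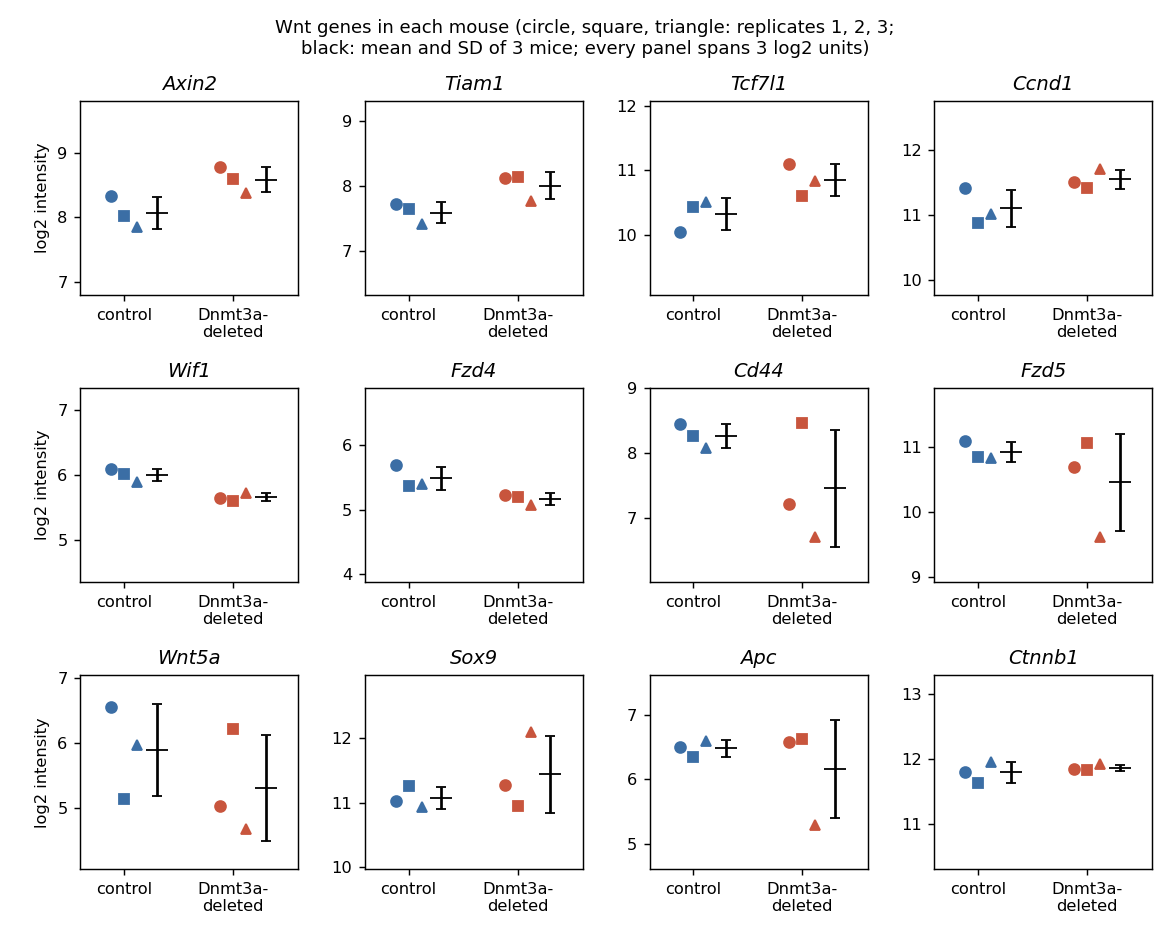
Log2 intensity of 12 Wnt genes in each mouse (vertical axis, every panel spanning 3 log2 units), control in blue and Dnmt3a-deleted in red, with the mean and SD of 3 mice in black. Axin2, Tiam1 and Tcf7l1 are higher and Wif1 and Fzd4 lower in all 3 Dnmt3a-deleted mice, while the wide bars of Cd44, Fzd5, Apc and Sox9 come from replicate 3 or from replicates 1 and 3.

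Further target genes went in both directions. Tiam1, an activator of the GTPase Rac that is induced in intestinal tumours, stood at 7.72, 7.64 and 7.42 in control mice, against 8.12, 8.14 and 7.77 in Dnmt3a-deleted mucosa. Every Dnmt3a-deleted mouse was higher than every control mouse, with replicate 3 the closest to them. The difference was 0.42 ± 0.18 (SE), 1.34-fold (unadjusted p 0.0482, adjusted p 0.700 by limma), and 0.54 ± 0.15 without replicate 3. With median scaling, which shifts all genes, it was 0.23.

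Ccnd1, the cyclin that drives entry into the cell cycle, stood at 11.42, 10.87 and 11.01 in control mice, against 11.51, 11.42 and 11.71 in Dnmt3a-deleted mucosa. The groups overlapped only in that Dnmt3a-deleted replicate 2 lay marginally below control replicate 1. The difference was 0.45 ± 0.19 (SE), 1.36-fold, at an unadjusted p of 0.0512 and an adjusted p of 0.700 by limma, and 0.37 ± 0.19 without replicate 3. Both other Ccnd1 probes were also higher on average, by 0.58 and 0.48. The first of them separated the groups, at 10.96, 10.60 and 10.82 against 11.36, 11.22 and 11.54. The second did not, at 8.41, 7.86 and 8.24 against 8.61, 8.94 and 8.39, with replicate 3 the lowest Dnmt3a-deleted mouse. Mean levels of the 9 proliferation markers tested, among them Top2a, Pcna and Mcm2, ran over 8.09 to 8.62 in control and 7.97 to 8.74 in Dnmt3a-deleted mice, lowest in replicate 3. Their part in the Ccnd1 values was not tested.

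Cd44, an adhesion receptor of crypt cells and of leukocytes, had the widest difference among the Wnt genes, each taken by its brightest kept probe. By its brightest probe it stood at 8.45, 8.26 and 8.08 in control mice, against 7.21, 8.46 and 6.70 in Dnmt3a-deleted mucosa. By that probe replicates 1 and 3 were low and replicate 2 was as high as any control mouse. The difference was -0.81 ± 0.41 (SE), 1.75-fold lower, at an unadjusted p of 0.0823 and an adjusted p of 0.700 by limma. It was -0.43 ± 0.34 without replicate 3, -1.31 without replicate 2 and -0.40 over the mean of its 6 kept probes. All 6 had a negative difference, but of unequal size. The second-brightest probe differed by only -0.098, and by it replicate 3 was the highest Dnmt3a-deleted mouse and replicate 1 the lowest. Another probe differed by -0.0021. The remaining probes differed by -0.55, -0.51 and -0.42, and only the last of these separated the groups. Leukocyte markers were lower in the same group: all 8 of 8, including Ptprc and Coro1a, had a negative difference, with a median of -0.69, and 0 passed. Their mean level was 7.16 to 7.41 in control and 6.44 to 6.71 in Dnmt3a-deleted mucosa, without overlap. Of 10 T cell and NK cell markers tested, 9 were lower, with mean levels of 7.57 to 8.26 and 6.79 to 7.31, while Cd5, Cd8a and Gzmb were detected on no array. The part of these cells in the Cd44 values was not tested, and in a tissue sample fewer cells of a type cannot be told apart from less RNA per cell.

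Sox9, a transcription factor of crypt base cells, stood at 11.03, 11.27 and 10.93 in control mice, against 11.27, 10.94 and 12.10 in Dnmt3a-deleted mucosa. Replicate 3 was the highest mouse, and the difference of 0.36 ± 0.29 (SE) was 0.03 ± 0.17 without it. A second Sox9 probe differed in the other direction, by -0.14. Myc, the growth regulator through which much of the effect of Apc loss in the mouse intestine runs, had 5.60, 6.03 and 6.05 against 6.09, 6.09 and 5.57, overlapping, with a difference of 0.02 ± 0.22 (SE), 0.19 without replicate 3. Sp5, a transcription factor and direct target, had 6.31, 5.38 and 5.41 against 5.34, 6.13 and 5.33: control replicate 1 and Dnmt3a-deleted replicate 2 were high and the other 4 mice low. Its difference was -0.10 ± 0.32 (SE) and 0.03 without replicate 3, with no separation of the groups. Prox1, a target switched on in colorectal tumours, had 4.92, 5.32 and 5.04 against 5.33, 5.32 and 5.25 and was detected on 1 control array and on 3 Dnmt3a-deleted arrays, with a difference of 0.21 ± 0.17 (SE), 0.23 without replicate 3. Tnfrsf19 was detected on no array.

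**Figure D4:**
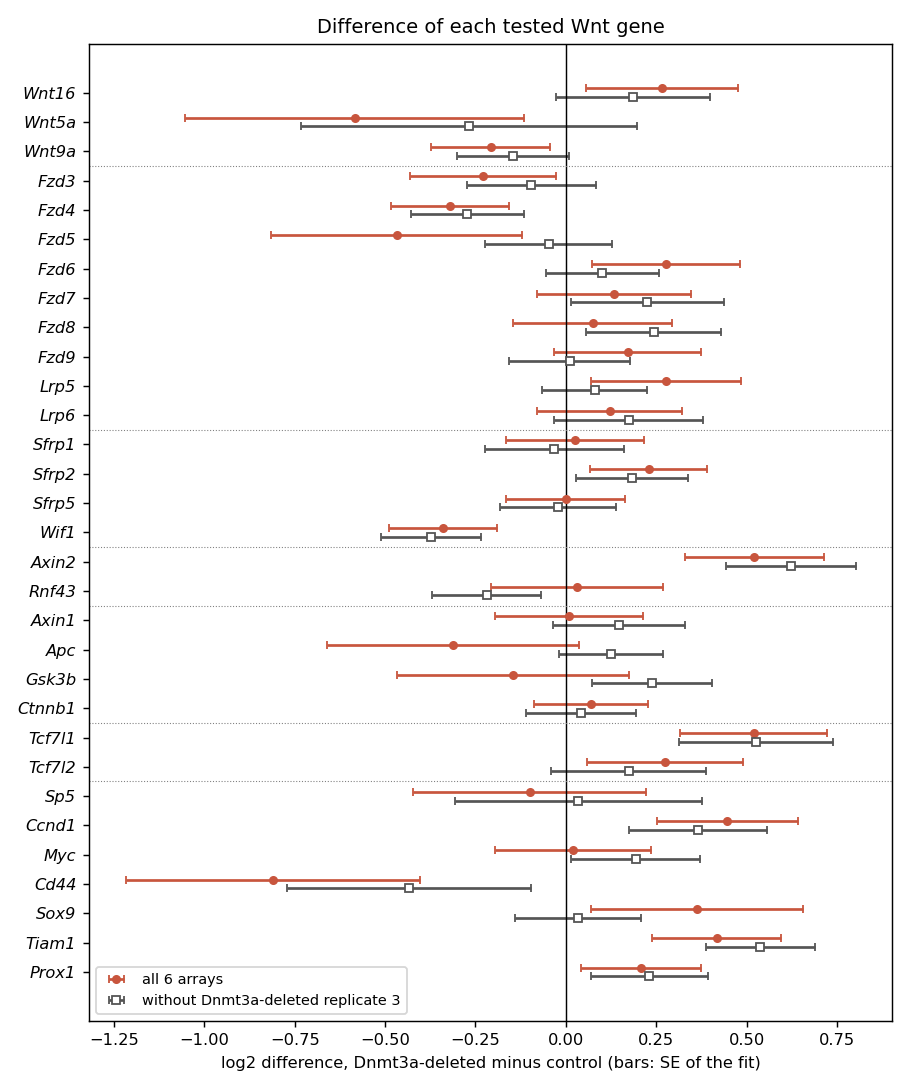
Log2 difference, Dnmt3a-deleted minus control, of each tested Wnt gene (rows, by role) with its SE, over all 6 arrays (red circles) and without Dnmt3a-deleted replicate 3 (open squares). Axin2, Tcf7l1, Tiam1, Ccnd1 and Wif1 keep their place without that array, while Fzd5, Apc, Gsk3b and Sox9 move to or across 0.

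Promoter windows of 5 of these genes are shown so that 4 of the 5 genes that separated the groups can be set beside Sp5, a direct target that did not. The other, Fzd4, is not printed, and its window held 0 matches and 32 CpG dinucleotides. Each holds 250 bases before and 50 after a RefSeq transcription start on GRCm38.p6, and Tiam1 has 2 starts in that table. Capitals mark a match, on either strand, to CTTTGAA or CTTTGAT, the core letters bound by Tcf and Lef factors. The windows are chr11:108920099-108920398 on the plus strand for Axin2, chr6:72788996-72789295 on the minus strand for Tcf7l1, chr16:89818303-89818602 on the minus strand and chr16:89974650-89974949 on the minus strand for Tiam1, chr2:70474673-70474972 on the plus strand for Sp5 and chr10:121033754-121034053 on the plus strand for Wif1.
Axin2: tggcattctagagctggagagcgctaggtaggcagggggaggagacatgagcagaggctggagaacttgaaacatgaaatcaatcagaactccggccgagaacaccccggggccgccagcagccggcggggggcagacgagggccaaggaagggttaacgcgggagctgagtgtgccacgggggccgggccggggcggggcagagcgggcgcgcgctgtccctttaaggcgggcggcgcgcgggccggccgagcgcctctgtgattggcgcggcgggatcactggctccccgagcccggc
Tcf7l1: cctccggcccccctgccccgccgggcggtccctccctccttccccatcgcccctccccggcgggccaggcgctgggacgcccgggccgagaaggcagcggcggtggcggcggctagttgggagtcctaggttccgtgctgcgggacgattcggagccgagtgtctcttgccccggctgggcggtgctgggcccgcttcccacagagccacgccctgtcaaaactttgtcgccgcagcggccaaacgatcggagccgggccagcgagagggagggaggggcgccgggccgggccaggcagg
Tiam1, first window: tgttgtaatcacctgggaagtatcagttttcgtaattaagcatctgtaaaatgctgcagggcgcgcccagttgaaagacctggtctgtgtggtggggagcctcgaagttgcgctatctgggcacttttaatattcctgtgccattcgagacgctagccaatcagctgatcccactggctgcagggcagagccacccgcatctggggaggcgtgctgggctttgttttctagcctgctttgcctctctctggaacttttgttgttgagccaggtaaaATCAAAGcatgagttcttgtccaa
Tiam1, second window: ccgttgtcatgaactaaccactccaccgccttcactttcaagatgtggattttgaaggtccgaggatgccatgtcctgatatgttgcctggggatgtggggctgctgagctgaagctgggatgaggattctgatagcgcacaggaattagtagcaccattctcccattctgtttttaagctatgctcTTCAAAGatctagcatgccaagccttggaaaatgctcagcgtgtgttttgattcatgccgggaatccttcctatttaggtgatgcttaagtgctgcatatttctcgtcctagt
Sp5: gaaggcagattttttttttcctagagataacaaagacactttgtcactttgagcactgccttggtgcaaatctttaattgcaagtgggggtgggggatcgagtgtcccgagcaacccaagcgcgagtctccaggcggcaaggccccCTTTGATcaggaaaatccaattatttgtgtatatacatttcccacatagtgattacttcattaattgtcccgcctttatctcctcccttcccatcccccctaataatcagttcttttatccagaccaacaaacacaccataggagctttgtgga
Wif1: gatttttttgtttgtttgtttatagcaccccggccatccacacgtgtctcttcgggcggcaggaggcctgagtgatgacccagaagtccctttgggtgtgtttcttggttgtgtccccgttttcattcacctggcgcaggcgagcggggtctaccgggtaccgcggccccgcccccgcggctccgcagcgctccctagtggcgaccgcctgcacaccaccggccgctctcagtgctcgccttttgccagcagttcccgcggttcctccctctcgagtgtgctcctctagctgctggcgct

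A match stood in both Tiam1 windows and in the Sp5 window, and in none of the windows of Axin2, Tcf7l1 and Wif1. The letters occur in 8.65% of all 32851 windows of the table, and in 7 of 53 windows of the 40 Wnt genes listed in it, the others being in Wnt5b, Wnt11, Dkk1 and Tnfrsf19. CpG dinucleotides, the sites that Dnmt3a methylates, numbered 31 in the Axin2 window, 34 in that of Tcf7l1 and 25 in that of Wif1. There were 9 and 7 in the Tiam1 windows and 6 in that of Sp5. The median was 22 over windows of Wnt genes and 7 over all windows. Tested genes that did not separate the groups had as few as 3, in a Rnf43 window, and as many as 58, in that of Wnt9a. Sp5 therefore does not stand for those genes. Of the genes that separated the groups, Axin2, Tcf7l1, Wif1 and Fzd4 had windows above the median of Wnt genes. Those of Tiam1 lay below it, at or above the median of all windows. DNA methylation was not measured here.

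Axin2 was the member whose neighbours in expression were looked up. Over the 6 arrays, the genes outside the lists with the highest Pearson correlation to it were Zfyve26, Strn and Slc16a3, at 0.988, 0.987 and 0.985. They were the closest of 11255 genes over only 6 arrays that share 2 groups, so these values are a description. Their own differences between the groups were 0.26, 0.29 and 0.23.

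Other genes of the pathway, taken from a list of 48 that the rule did not cover, were tested in the same fit. Of these 47 had a probe and 34 were tested, 0 passed by limma, and the median difference was 0.10, with 22 above 0 and 12 below, where 58.4% of all genes lay above 0. The groups did not overlap for Csnk1e, which was lower, and for Csnk1g1, Tnks2 and Pygo2, which were higher, in all 11.8% beside 14.5% of all genes. The kinase gene Csnk1e, which acts on Dvl proteins, was lower in every Dnmt3a-deleted mouse by its brighter probe. It stood at 7.47, 7.66 and 7.88 against 7.07, 7.38 and 7.30 (difference -0.42 ± 0.18, SE, and -0.44 without Dnmt3a-deleted replicate 3). Its unadjusted p was 0.0453 and its adjusted p 0.700 by limma. Over the mean of its 2 kept probes the difference was -0.29, at an unadjusted p of 0.110 by limma.

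Pygo2, a nuclear co-activator that binds beta-catenin through Bcl9 proteins, was higher in every Dnmt3a-deleted mouse, at 10.04, 9.89 and 9.76 against 10.22, 10.06 and 10.90. Its difference of 0.50 ± 0.24 (SE) was 0.25 without Dnmt3a-deleted replicate 3. Kremen2 stood at 7.94, 7.84 and 7.31 against 8.37, 8.48 and 7.82, where Dnmt3a-deleted replicate 3 lay within the control range. Ctnnbip1, an inhibitor that keeps beta-catenin from Tcf factors, stood at 9.01, 9.08 and 8.82 against 9.51, 9.47 and 9.05. Replicate 3 was again within the control range. Differences of Kremen2 and Ctnnbip1 were 0.52 ± 0.25 and 0.37 ± 0.18 (SE) over all arrays, and 0.73 and 0.52 without it, at an adjusted p of 0.700 over all arrays and 0.926 without it by limma. The stem cell receptor Lgr5 was tested and is counted here. Its groups overlapped, with a difference of -0.03 ± 0.16 (SE), 0.02 without Dnmt3a-deleted replicate 3. Lgr4, Lgr6, Rspo2 and Rspo4 of the same signal were detected on no array.

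**Figure D5:**
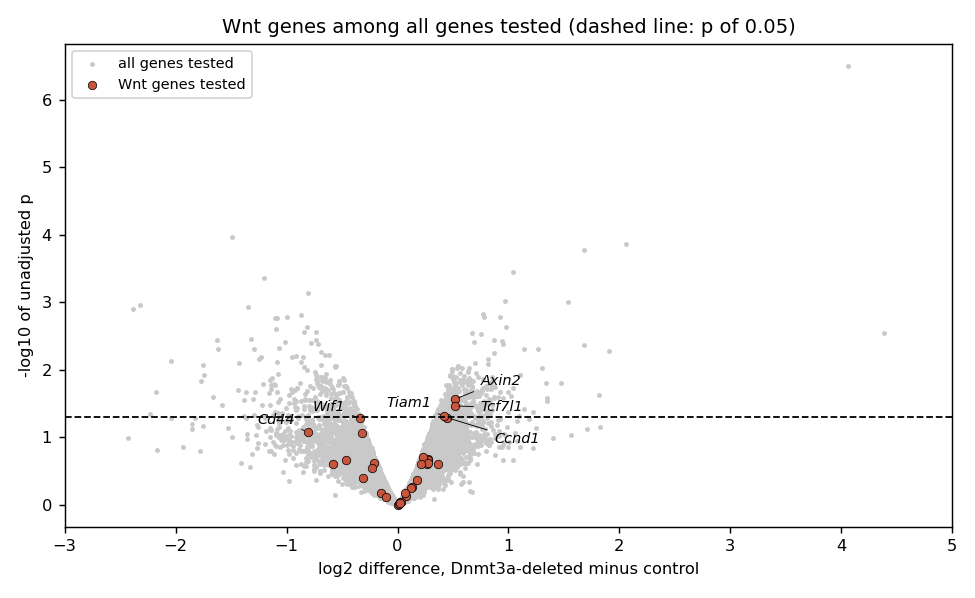
Log2 difference, Dnmt3a-deleted minus control (horizontal), against -log10 of the unadjusted p (vertical) for all 11370 genes tested (grey) and the 31 Wnt genes (red). Axin2, Tcf7l1 and Tiam1 lie above the dashed line at a p of 0.05, within the cloud of all genes.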

How the data were processed

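Per the file headers and values, the deposited table of unprocessed data holds an intensity per probe on a linear scale with background included, and a deposited detection p-value beside it. From the values, low p-values occurred on both sides of the background, also below it (6320 to 7410 per array at p under 0.05), so it was read as 2-sided. The authors' processed intensities were used as an alternative; their normalization is not given in the sources used here, and their medians were 92.9 to 94.8.

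Signals were corrected by normexp (saddle-point estimates, offset 16), quantile normalized and log2 transformed with limma 3.58.1 in R 4.3.3. A probe was detected when p was under 0.05 and its signal above the median of probes with p over 0.97. Of 45135 probes, 21183 detected on at least 3 arrays were kept, and a gene took its brightest kept probe. Symbols came from the platform annotation (34773 probes with 1 symbol, 18 with several, 10344 unnamed), updated for 34695 from RefSeq (GRCm38.p6), which also gave the promoter windows; 40 of 62 members had one. Groups were compared with lmFit and eBayes, 2-sided, with no covariate. The mice are separate animals, and 3 per group limit the precision.

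The members and lists were chosen with earlier results of these data known. Dnmt3a, Apc, Ctnnb1, Axin2 and, in each of 7 roles and the other pathway genes, up to 4 genes of smallest p were to be named, 27 tested genes in all; the other 8 tested members were added so that all are described. Alternatives changed the background correction, offset, normalization, source of values, filter, probe rule, array weights, variance model, sex, the replicate block and the arrays left out. The fit was tested on simulated data.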

Additional observations from a re-analysis of the deposited data

How the results depend on the processing

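Wnt genes past the threshold numbered 0 in each direction under all 18 alternatives, and with each kept probe tested (added after seeing the data, 53 Wnt probes). Of 35 genes described, 22 kept their direction throughout, among them Axin2, Tcf7l1, Tiam1, Ccnd1, Wif1, Fzd4 and Cd44. Adjusted p reached its lowest values with array weights, for Tcf7l1 at 0.0831, where Dnmt3a-deleted replicate 1 had a weight of 6.04 and replicate 3 of 0.154. All genes past the threshold were then 7 higher and 8 lower, against 1 and 0, and the Wnt median was 0.143. Leaving out 1 array gave 0 to 1 gene higher in all, 0 of them without control replicate 2, and a Wnt median of 0.0717 to 0.111. Median scaling moved the median of all genes from 0.0550 to -0.0510 and that of the Wnt genes to -0.0364. In count, 14 Wnt genes were then higher and 17 lower. With median scaling 1 of 31 Wnt genes, Wif1, had an unadjusted p under 0.05 by limma, beside 4.30% of all genes. Axin2, Tcf7l1 and Tiam1 kept their direction there, but their unadjusted p-values by limma were 0.200, 0.0937 and 0.399.

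Directions turned for 13 genes, Apc among them, and the cause was not tested. The log2 differences that turned were Ctnnb1 -0.0364, Sfrp1 -0.0529, Sfrp5 -0.00452, Rnf43 -0.0616, Axin1 -0.162, Fzd7 -0.0412, Myc -0.0594 with median scaling, Sfrp5 -0.00705, Rnf43 -0.0312, Axin1 -0.0617 with loess, and Sfrp1 -0.0520, Gsk3b 0.105, Axin1 -0.106 with the mean of kept probes. They were Apc 0.0813, Sfrp1 -0.0594, Rnf43 -0.231, Gsk3b 0.143, Fzd9 -0.120 with array weights, Sfrp1 -0.00717, Sfrp5 -0.0130, Axin1 -0.0762, Fzd8 -0.0378 with sex as a term, and Sfrp1 -0.00190 from the authors' values. Sfrp5 was -0.00126 without background correction and -0.00133 at an offset of 50. Ranges over the arrays left out were Rnf43 -0.220 to 0.192, Lrp6 -0.0227 to 0.275, Sp5 -0.367 to 0.203, Myc -0.127 to 0.194, Ctnnb1 -0.0106 to 0.149, Fzd7 -0.0389 to 0.309, Sfrp1 -0.135 to 0.146, Sfrp5 -0.104 to 0.0564, Axin1 -0.132 to 0.147, Fzd8 -0.0842 to 0.243, Apc -0.543 to 0.124, Gsk3b -0.345 to 0.238.

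Replicate numbers are shared by the groups. Deviations of the genes from their group means correlated at -0.124, -0.110 and 0.0378 between same-numbered arrays. With 3 mice per group such values cannot show whether same-numbered mice were paired, and the main fit did not pair them. With the replicate block 0 Wnt genes passed, 1 instead of 3 had an unadjusted p under 0.05 beside 4.46% of all genes (8 with array weights, 6 with sex as a term, where 19.5% and 14.5% of all genes did), and the Wnt median was 0.0701. Probes of a gene did not always agree: of 13 Wnt genes with several kept probes, 7 had the same direction by all of them. Directions were mixed for Axin1, Ctnnb1, Gsk3b, Lrp6, Sfrp1 and Sox9. Signal was also limiting: 12 of the 31 tested genes were not detected on all 6 arrays. No fit with slide as a block was made, as no slide is given.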
